A study of Mus musculus with 48 samples.

Results

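Among primary mouse sarcomas given 20 Gy, those with more T cell RNA were compared with those with less. The 16 irradiated primary tumours, of 48 tumours in the series, were ranked by their counts-per-million (CPM) of Cd3e, the epsilon chain of CD3 and a marker of T cells. The 8 highest (Cd3e-high) were set against the 8 lowest (Cd3e-low), with antibody as a covariate, across 16694 other genes. Cd3e ran from 0.202 to 3.32 CPM in the Cd3e-low tumours (median 1.63) and from 4.61 to 48.6 CPM in the Cd3e-high tumours (median 8.74), which is how they were chosen and is not a result. On either side of the boundary stood isotype replicate 4 with 3.32 CPM and isotype replicate 3 with 4.61 CPM. Because measured values made these sets, a difference between them says that a gene moved with Cd3e from tumour to tumour, and not that a treatment changed it.

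The tumours were p53/MCA sarcomas of the gastrocnemius, raised in p53FL/FL mice of 129/SvJae background. The mice, 6 to 10 weeks old, were injected with Adeno-Cre, a virus that carries Cre recombinase to the injected muscle cells, and then with 300 µg of the carcinogen MCA. At about 150 mm3 each mouse was given 200 µg of either muDX400 (a murine anti-PD-1 antibody) or an isotype control, then radiation at once, and the tumour was taken 3 days later for bulk RNA sequencing. Of the 16 irradiated tumours 8 received isotype control and 8 anti-PD-1, and 16 primary tumours given 0 Gy with the same antibodies (8 each) served for comparison. All tumours were raised with the same deletion and carcinogen, and samples without them were not compared. Every tumour was whole tissue in which sarcoma, host and blood cells were sequenced together, so more cells of a type and more RNA per cell cannot be told apart.

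CD3 chains carry the signal of the T cell receptor, which reads peptides held on MHC molecules. MHC class I, found on nearly all cells, is read by CD8 T cells. MHC class II, made mainly by dendritic cells, macrophages and B cells, is read by CD4 T cells. PD-1 is an inhibitory receptor of activated T cells, and its ligand PD-L1 is induced by interferon gamma. Radiation is known to induce type I interferon genes and the p53 target Cdkn1a in many tissues.

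Rank by Cd3e did not follow antibody: each set held 4 isotype and 4 anti-PD-1 tumours (2-sided Fisher exact p = 1). Library totals were 37.5 to 51.4 M counts (M being 1000000) in the Cd3e-low and 31.8 to 46.5 M counts in the Cd3e-high tumours, a difference in means of -4.53 M counts (2-sided exact permutation p = 0.0713, n = 8 against 8), and of -5.84 M counts without isotype replicate 6 (exact permutation p = 0.0118). Mitochondrial genes took 0.6% to 1.24% of counts in Cd3e-low (median 0.852%) and 0.784% to 2.32% in Cd3e-high tumours (median 1.1%), and the part of this difference in the results was not tested. The summed level of 18 skeletal muscle genes spanned 19.4 to 56300 CPM in Cd3e-low and 276 to 106000 CPM in Cd3e-high tumours (difference of log2 means 2.39, exact permutation p = 0.197). Trp53 RNA, from the gene targeted in the tumour cells, was at 21.4 to 59.5 and 24.5 to 53.9 CPM, and these whole-gene counts do not check the deletion. One library stood apart. The library labelled Primary_20Gy_PD1 replicate 5, the lowest in Cd3e, had 79 CPM of Cdkn1a, within the 27.9 to 85.4 CPM of the 16 unirradiated tumours and below the 150 to 475 CPM of the other 15 irradiated ones. It also had 180 CPM of Irf7 (405 to 1310 in the other irradiated and 50 to 738 in the unirradiated tumours). Its 31.1 CPM of the macrophage gene Adgre1 lay below both ranges (99.2 to 481 and 96.9 to 194), as did its 60.1 CPM of Ptprc (84.8 to 391 and 68.5 to 146), on a scale set over all 32 primary tumours. Called members of the immune lists other than the T cell receptor list are given with and without it, and the lymph node, mast cell and type I interferon lists had 0 and the neutrophil and monocyte list 1 in either case.

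Across all genes, 719 of 16694 were called, that is, had a Benjamini-Hochberg adjusted p below 0.05 in edgeR's quasi-likelihood test (4.31%). Of these, 571 were higher in Cd3e-high tumours (3.42% of genes tested) and 148 were lower (0.887%). The 571 include 15 genes of the T cell receptor and signalling list, which is otherwise given with no test. DESeq2 called 1047 higher and 648 lower. With skeletal muscle level as a covariate edgeR called 204 and 17. Without the 6 tumours whose skeletal muscle genes summed to over 10000 CPM, 4 of them Cd3e-high, it called 0 (2182 unadjusted; DESeq2 was not run on them). The directions differed in size: 409 of the higher and 15 of the lower genes differed more than 2-fold. The median log2 difference of all genes was -0.01. Without the library labelled replicate 5 of anti-PD-1, 515 genes were called. Leaving out other tumours gave between 251 (without isotype replicate 5) and 1174 (without anti-PD-1 replicate 2) calls, and moved the count by over 1.5 times also without isotype replicate 2 (373), 6 (394) or 8 (351) and without anti-PD-1 replicate 3 (356), 4 (398) or 6 (392).

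**Figure D1:**
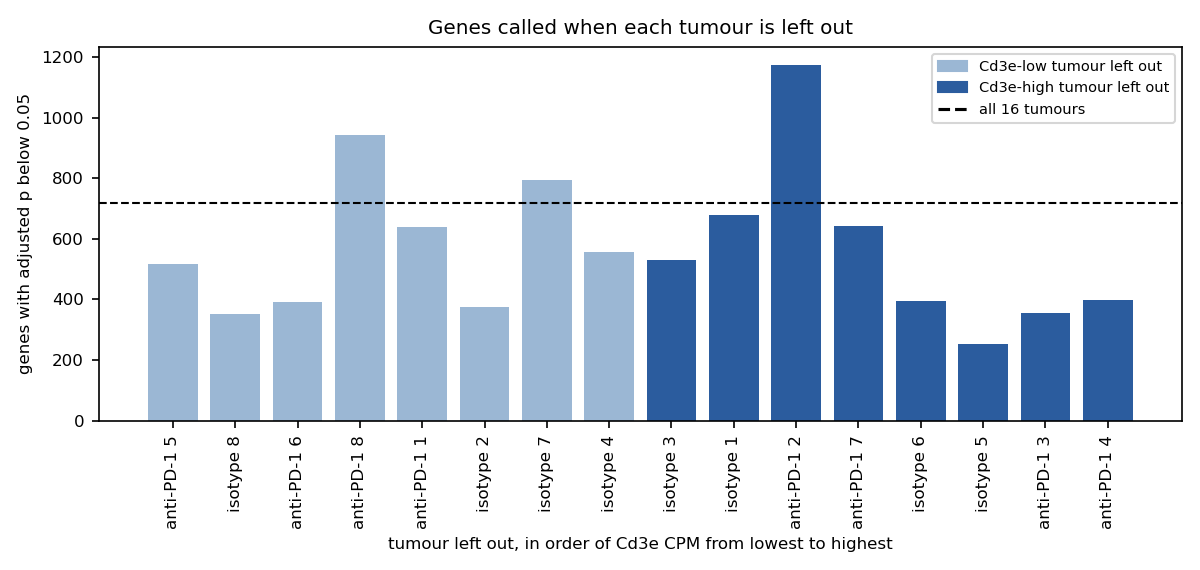
Number of genes with an adjusted p below 0.05 between Cd3e-high and Cd3e-low tumours (vertical axis) when the tumour named on the horizontal axis is left out, tumours in order of Cd3e CPM. Light bars are Cd3e-low and dark bars Cd3e-high tumours left out, and the dashed line is the count of 719 with all 16. The counts lie between 251 and 1174.

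A gene shared by most leukocytes moved with Cd3e. Ptprc, which encodes the pan-leukocyte antigen CD45, was at 56.1 CPM in the lowest, 103.0 in the median and 161 in the highest Cd3e-low tumour, against 159, 283 and 401 CPM in Cd3e-high tumours. In 7 of 8 Cd3e-high tumours it lay above every Cd3e-low tumour (log2 difference 1.39, SE 0.24, adjusted p = 0.00893). With Ptprc added as a covariate, 0 genes were called by edgeR (1248 at an unadjusted p below 0.05; DESeq2 was not run with it). The sign then turned for 10 of the named called genes outside the T cell receptor list, Pdcd1, Foxp3 and Icos among them. Ptprc and the Cd3e sets are nearly the same split, so that a difference specific to T cells and one of leukocytes in general cannot be told apart here.

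The genes named by p-value leave out the T cell receptor and signalling list and the variable, diversity and joining segments of antigen receptors. Among the other genes higher in Cd3e-high tumours, 10 were chosen by p-value with a mean of at least 5 CPM. They were Amz1, Card9, Aim2, Bin2, Adgrg5, Klra2, Otulinl, Arhgap4, Cd300c2 and Tifa. Every Cd3e-high tumour lay above every Cd3e-low tumour for all 10, with log2 differences of 1.06 to 2.06. Genes chosen by p-value between the same sets tend to separate in this way. The share of all genes without overlap was not counted, here or for the genes given below as having no overlap. Amz1, which encodes a metallopeptidase, was at 2.2, 2.98 and 4.33 CPM (lowest, median, highest) in Cd3e-low and 6.52, 10.5 and 12.8 CPM in Cd3e-high tumours (log2 difference 1.68, SE 0.19, adjusted p = 0.00256). Aim2, a sensor of DNA in the cytosol that starts an inflammasome, ran from 5.59 to 15.3 CPM (median 9.05) in Cd3e-low and from 16.8 to 31.8 CPM (median 21.6) in Cd3e-high tumours (1.25, SE 0.17, adjusted p = 0.00482). Card9, an adaptor of C-type lectin receptors in myeloid cells, rose by 1.06 (SE 0.13, adjusted p = 0.00482), from a median of 8.61 to one of 19.2 CPM. Klra2, of the Ly49 receptor family, went from a median of 30.8 to 96.9 CPM, and Cd300c2, a receptor of myeloid cells, from 36.2 to 107.1 CPM.

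**Figure D2:**
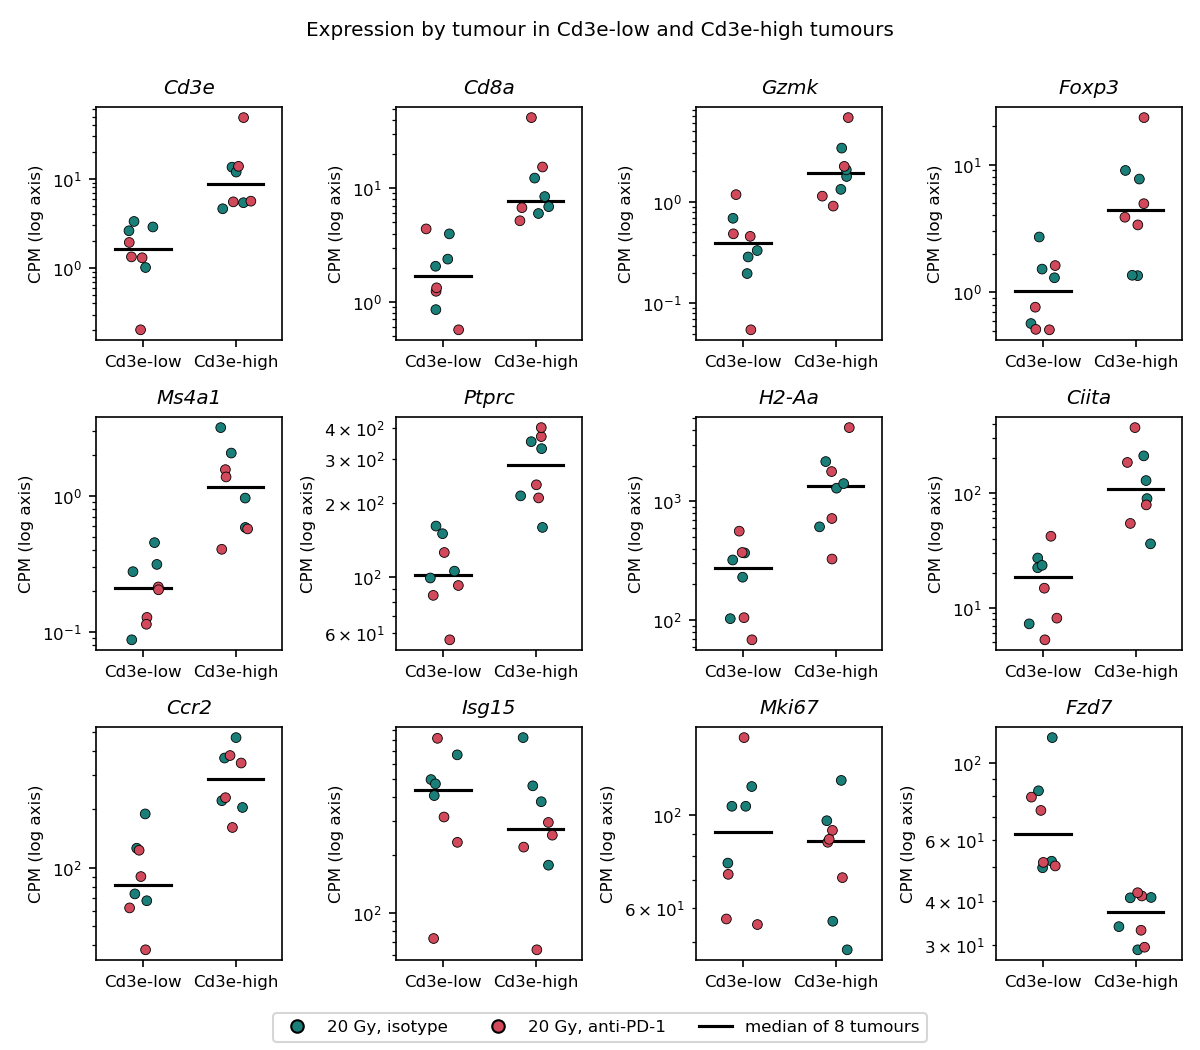
Expression of 12 genes in each of the 16 irradiated primary tumours, in CPM on a log axis, in Cd3e-low and Cd3e-high tumours. Points are tumours, coloured by antibody, and the bar is the median of 8. The sets do not overlap for Cd8a or for Fzd7, which is lower in Cd3e-high tumours, while Isg15 and Mki67 overlap almost entirely. Cd3e is shown only because it defined the sets.

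Genes of the T cell receptor and signalling list are given as a description, with no test, because they measure nearly what Cd3e measures. Genes of other lists that T cells carry, such as Pdcd1, Ctla4, Foxp3, Icos, Cxcr3 and Cxcr6, come with their test below, but they too can follow the ranking gene, and their calls are not independent of how the sets were chosen. Of the 20 genes of the list, all 20 were higher in Cd3e-high tumours, with a median log2 difference of 2.14. Cd3d, another CD3 chain, was at 0.293, 1.15 and 2.83 CPM (lowest, median, highest) in Cd3e-low and at 2.62, 7.7 and 28.5 CPM in Cd3e-high tumours, a log2 difference of 3.13. Cd8a, the co-receptor of CD8 T cells, was at 0.568, 1.69 and 4.39 CPM against 5.18, 7.67 and 41.9 CPM, with no overlap. Cd4 overlapped more, at 2.28, 10.2 and 18.8 CPM against 7.53, 14.4 and 63.3 CPM (1.25). The single tumour at the top in Cd3e, Cd3g, Cd8a and Cd28 was anti-PD-1 replicate 4.

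Ratios between T cell genes within a tumour are a description too, since Cd8a moved with the ranking gene and stands in 5 of the 6 ratios computed (0.1 CPM added to each gene). The log2 ratio of Cd8a to Cd4 was -2.08 ± 0.52 in Cd3e-low and -0.87 ± 0.65 in Cd3e-high tumours (SD, n = 8 each). For the transcription factor gene Tcf7 relative to Cd8a the log2 ratios were 2.5 ± 1.37 and 0.04 ± 1.15. For Gzmb, encoding the killing protease granzyme B, relative to Cd8a they were 4.57 ± 0.96 and 3.18 ± 1.14. Macrophages and other cells can also carry Cd4, Gzmb or Tcf7 transcripts, and their part in these ratios was not tested. The differences (Cd3e-high minus Cd3e-low) were 0.82 for Foxp3 to Cd4, -0.37 for Pdcd1 to Cd8a and -0.09 for Ifng to Cd8a. With 0.5 CPM added the difference for Ifng to Cd8a was -0.81, so this value depends on the amount added.

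Among 10 cytotoxic effector genes 5 rose and 0 fell, with a median log2 difference of 1.58, beside 3.42% of all genes called higher. Ifng, encoding interferon gamma, was at 0.0366, 0.103 and 0.619 CPM in Cd3e-low and 0.505, 1.14 and 2.94 CPM in Cd3e-high tumours (2.98, SE 0.64, adjusted p = 0.0194). Gzmk, encoding granzyme K, was at 0.055, 0.395 and 1.18 CPM against 0.91, 1.92 and 6.77 CPM (2.42, SE 0.53, adjusted p = 0.0211). Ctsw (1.72, adjusted p = 0.0234) and Nkg7 (1.76, adjusted p = 0.0433), genes of cytotoxic lymphocyte granules, rose too. The most abundant members of the list overlapped between the sets. Gzmb ran from 4.6 to 170 CPM (median 52.6) in Cd3e-low and from 50.8 to 176 CPM (median 83.6) in Cd3e-high tumours (0.83, SE 0.47, adjusted p = 0.326). Prf1, encoding the pore-forming perforin, had medians of 22.2 and 30.6 CPM (0.02, SE 0.51, adjusted p = 0.99), and Ccl5, a chemokine, 184 and 143.7 CPM (-0.01, SE 0.41, adjusted p = 0.996). Called members of this list numbered 4 without anti-PD-1 replicate 5, 0 without isotype replicate 5, 2 without isotype replicate 6 or 8 or anti-PD-1 replicate 3, 4 or 6, and 3 without isotype replicate 2 or 4 or anti-PD-1 replicate 1 or 8. The call of Nkg7 was lost in 10 of 16 fits without 1 tumour and that of Ctsw in 5.

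Inhibitory receptor genes rose in 4 of 9 cases and fell in 0 (median 1.85), beside 3.42% of all genes called higher. Pdcd1, encoding PD-1, the receptor blocked by the antibody in 4 tumours of each set, was at 0.385, 1.59 and 3.19 CPM in Cd3e-low and 1.74, 6.01 and 25.5 CPM in Cd3e-high tumours (2.45, SE 0.58, adjusted p = 0.0285). Ctla4 was at 0.605, 1.07 and 3.29 CPM against 1.66, 5.09 and 18.1 CPM (2.47, SE 0.52, adjusted p = 0.0177). Cd244a, a receptor of killer lymphocytes, rose by 1.51 (adjusted p = 0.0171). The receptors Lag3 (0.09, adjusted p = 0.877), Havcr2 (0.81, adjusted p = 0.0804) and Tigit (1.48, adjusted p = 0.122) did not pass. Of 8 genes of regulatory T cells and costimulation 5 rose and 0 fell (median 1.72). Foxp3, the lineage factor of regulatory T cells, was at 0.509, 1.03 and 2.71 CPM against 1.35, 4.4 and 23.3 CPM (2.52, SE 0.61, adjusted p = 0.0319). Icos (2.38, adjusted p = 0.0233) and Tnfrsf18, encoding GITR (1.96, adjusted p = 0.0151), are costimulatory receptors and rose as well. Without isotype replicate 5 the called members were 1 of 9 and 1 of 8, and without anti-PD-1 replicate 5 they were 3 and 2. The first count was 2 without isotype replicate 2 or anti-PD-1 replicate 3, and the second was 1 without isotype replicate 6 or 8 and 2 without isotype replicate 2 or anti-PD-1 replicate 1, 3 or 6. The call of Foxp3 was lost in 8 of 16 fits without 1 tumour, that of Pdcd1 in 5 and that of Icos in 3.

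Natural killer cell genes rose in 2 of 10 cases and fell in 0 (median 1.58, with 3.42% of all genes called higher): Klrk1, encoding the activating receptor NKG2D that CD8 T cells also carry (medians 7.93 and 33.3 CPM, log2 difference 2.26, adjusted p = 0.0134), and Klrd1, encoding CD94 (2.84 and 10.1 CPM, 1.67, adjusted p = 0.0237). Ncr1, the gene that marks natural killer cells most closely, had medians of 3.67 and 7.69 CPM and did not pass (1.21, SE 0.47, adjusted p = 0.153). The count of 2 was the same without anti-PD-1 replicate 5, 1 without isotype replicate 5 or 8 or anti-PD-1 replicate 3, and 4 without isotype replicate 3 or anti-PD-1 replicate 2. B and plasma cell genes rose in 5 of 12 cases (median 2.21), beside 3.42% of all genes. The count was 2 without isotype replicate 5, and 3 without isotype replicate 3, 4, 6 or 8 or anti-PD-1 replicate 3, 4, 5 or 8. Ms4a1, encoding the B cell antigen CD20, was at 0.0877, 0.209 and 0.452 CPM in Cd3e-low and 0.404, 1.16 and 3.15 CPM in Cd3e-high tumours (2.56, SE 0.42, adjusted p = 0.00893). Cd79a, a chain of the B cell receptor, rose from a median of 0.291 to 1.88 CPM (2.44, adjusted p = 0.0167). Of 42 immunoglobulin variable, diversity and joining segments tested 3 rose. Lymph node tissue carries both B and T cell RNA. Its list of 8 genes summed to 2.62 to 184 CPM (median 38.5) in Cd3e-low and 29.2 to 187 CPM (median 81.2) in Cd3e-high tumours. Of the 3 genes that passed the filter 0 were called in edgeR (0 unadjusted), and their mean centred log2 CPM was 1.62 to 1.9 in 3 of the 4 tumours with the most Cd3e, -0.74 in the one with the most, and 1.92 and 1.96 in 2 Cd3e-low tumours. Glycam1 was at 0 in all 8 Cd3e-low tumours and at most at 0.175 CPM in Cd3e-high ones, and Cr2 was at 0.0219 to 0.339 and 0.0701 to 0.328 CPM. The part of lymph node RNA in these values was not tested.

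All 10 genes of MHC class II presentation rose (median 2.44, beside -0.01 over all genes, of which 3.42% were called higher). H2-Aa, encoding the alpha chain of I-A, was at 68.4, 275 and 561 CPM in Cd3e-low and 327, 1350 and 4170 CPM in Cd3e-high tumours, 7 of which lay above every Cd3e-low tumour (2.54, SE 0.54, adjusted p = 0.0185). Ciita, the transactivator that switches class II genes on, was at 5.26, 18.5 and 41.9 CPM against 36, 108.5 and 370 CPM (2.91, SE 0.54, adjusted p = 0.0133). Cd74, the invariant chain, rose from a median of 402 to 1540 CPM (2.29, SE 0.54, adjusted p = 0.0258). H2-DMa, part of the editor that loads peptide, had no overlap, at 11 to 59.5 against 72.7 to 316 CPM (2.08, SE 0.39, adjusted p = 0.0133). H2-DMb2 rose by 1.98 (adjusted p = 0.0125), and its reads may be shared with the near-identical H2-DMb1. All 10 were also called without anti-PD-1 replicate 5 (median 2.3), and 8 without isotype replicate 5. The call of Cd74 was lost without isotype replicate 5 or 8 or anti-PD-1 replicate 3 or 4. The skeletal muscle list as a covariate left 6 called, and 0 were called without the 6 tumours in which that list summed to over 10000 CPM (median 2.2), within isotype (2.2, 9 genes tested) or within anti-PD-1 tumours (2.6, 8 genes tested).

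Since the class II genes moved together, RefSeq start-site windows (GRCm38.p6, 250 bases before to 50 after the start) were searched for CTGATTGG on either strand (reverse complement CCAATCAG), the inverted CCAAT sequence known as the Y box of class II promoters. Windows were found for 7 of the 10 genes, and those of H2-Aa, H2-Eb1 and H2-Oa held it, beside 4.1% of all 32851 windows. Windows of H2-Ab1, Cd74 and Ciita were not used. The 3 windows are shown 5′ to 3′ on the gene's strand, with the motif in capitals, because they put it at like distances from the start: its first base lay 51 bases before the start in H2-Aa (chr17:34287774-34288073, minus strand), 62 in H2-Eb1 (chr17:34305617-34305916, plus strand) and 46 in H2-Oa (chr17:34092129-34092428, plus strand).
H2-Aa: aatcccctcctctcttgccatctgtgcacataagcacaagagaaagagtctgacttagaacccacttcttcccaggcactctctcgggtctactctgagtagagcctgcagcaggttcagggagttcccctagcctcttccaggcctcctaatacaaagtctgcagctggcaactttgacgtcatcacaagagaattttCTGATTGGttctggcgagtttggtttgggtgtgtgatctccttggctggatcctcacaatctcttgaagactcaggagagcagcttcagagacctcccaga
H2-Eb1: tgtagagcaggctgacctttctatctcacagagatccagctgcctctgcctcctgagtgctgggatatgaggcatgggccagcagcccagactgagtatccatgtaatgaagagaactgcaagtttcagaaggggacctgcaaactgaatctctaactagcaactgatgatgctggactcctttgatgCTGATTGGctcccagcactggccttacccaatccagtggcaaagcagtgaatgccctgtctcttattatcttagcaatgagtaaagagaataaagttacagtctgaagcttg
H2-Oa: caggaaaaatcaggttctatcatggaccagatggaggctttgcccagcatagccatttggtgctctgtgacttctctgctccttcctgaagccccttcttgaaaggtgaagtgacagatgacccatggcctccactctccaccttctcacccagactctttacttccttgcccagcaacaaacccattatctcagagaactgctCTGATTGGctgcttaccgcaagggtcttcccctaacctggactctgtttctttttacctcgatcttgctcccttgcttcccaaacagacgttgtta
The window of H2-DMa, which rose by 2.08, did not hold these letters, nor did those of H2-DMb1, H2-DMb2 and H2-Ob. A match is a stretch of letters and not a measured binding site.

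Of 10 dendritic cell genes tested 3 rose and 0 fell (median 1.57, with 3.42% of all genes called higher): Batf3, a factor of the cross-presenting lineage, was at 1.26, 2.44 and 3.26 CPM against 3.26, 6.66 and 13.3 CPM (1.59, SE 0.33, adjusted p = 0.0167), Siglech, a plasmacytoid dendritic cell gene, rose by 2.5 (adjusted p = 0.0224), and Itgae, which T cells also carry, by 1.72 (adjusted p = 0.0436). Of these, 1 was called without isotype replicate 5 or 6 or anti-PD-1 replicate 6, and 2 without anti-PD-1 replicate 5. The call of Itgae was lost in 10 of 16 fits without 1 tumour, holding without isotype replicate 1, 3 or 4 or anti-PD-1 replicate 2, 7 or 8. Xcr1 (2.1, SE 0.72, adjusted p = 0.108) and Ccr7 (1.01, SE 0.47, adjusted p = 0.227) did not pass. Among 14 macrophage genes 1 was called, Csf1r, the receptor for the macrophage growth factor, with medians of 247 and 438 CPM (0.95, SE 0.25, adjusted p = 0.0446), beside 3.42% of all genes. This call was lost in the same 10 fits as that of Itgae, that without anti-PD-1 replicate 5 among them (0.9, adjusted p = 0.0822), and the list then had 0 called. Adgre1 had medians of 210 and 259 CPM (0.79, SE 0.36, adjusted p = 0.219), C1qa 653 and 997 CPM (0.72, adjusted p = 0.199) and Mrc1 182 and 162 CPM (0.16, adjusted p = 0.838). The median of the macrophage list was 0.71 (0.57 without anti-PD-1 replicate 5) and of the 13 neutrophil and monocyte genes tested 0.43, the latter running from -0.14 (without isotype replicate 3) to 1.12 (without anti-PD-1 replicate 6). In the latter list the monocyte chemokine receptor Ccr2 alone rose, from 37.9, 81.7 and 189 CPM to 161, 287 and 466 CPM (1.65, SE 0.3, adjusted p = 0.0125). The neutrophil genes S100a8 (0.41, SE 1.43, adjusted p = 0.892) and Csf3r (1.01, SE 0.37, adjusted p = 0.128) did not pass, and Ly6g, at 3.07 CPM at most, was filtered out. None of 10 mast cell genes tested was called (median -0.3, from -0.77 to 0.2 without 1 tumour), Cpa3 among them (-0.39, adjusted p = 0.815).

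**Figure D3:**
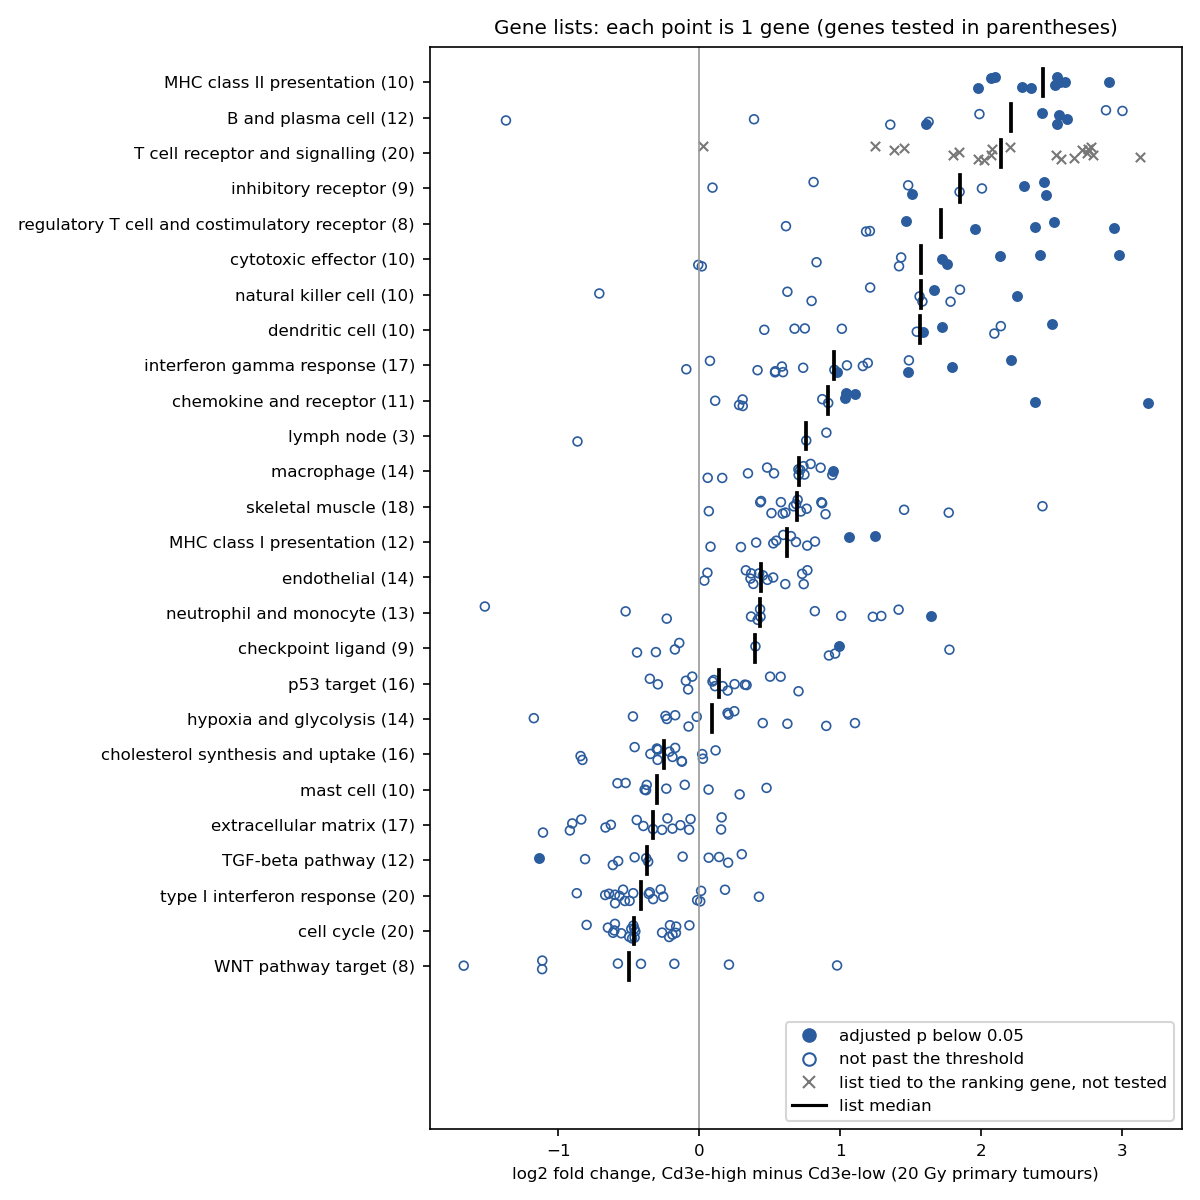
Log2 difference between Cd3e-high and Cd3e-low irradiated primary tumours (horizontal axis) for each tested gene of 26 lists (rows, number tested in parentheses). Filled points passed an adjusted p of 0.05, open points did not, crosses are the list tied to the ranking gene, and bars are list medians. MHC class II, at 2.44, has the highest median, and its 10 genes are all filled, while the 20 type I interferon and 20 cell cycle genes have none filled.

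Interferon genes did not move as 1 block. Of 17 interferon gamma response genes 4 rose and 0 fell (median 0.96), beside 3.42% of all genes called higher. Irf8, a factor of myeloid and B cells, was at 21, 58.7 and 129.2 CPM in Cd3e-low and 112.9, 189 and 254 CPM in Cd3e-high tumours (1.48, SE 0.29, adjusted p = 0.015). Gbp4, an interferon-induced GTPase, rose from a median of 54.7 to 161 CPM (1.8, SE 0.42, adjusted p = 0.0265) and Irf1 from 162 to 336 CPM (0.97, SE 0.24, adjusted p = 0.0356). Called members numbered 3 without anti-PD-1 replicate 5 (median 0.78), 1 without isotype replicate 5 or 8 or anti-PD-1 replicate 3 or 6, and 2 without isotype replicate 4 or anti-PD-1 replicate 4 or 7. The call of Irf1 was lost in 8 of 16 fits without 1 tumour, holding without isotype replicate 1, 2, 3, 6 or 7 or anti-PD-1 replicate 1, 2 or 8, and that of Gbp4 in 4 (isotype replicate 5 or 8, anti-PD-1 replicate 3 or 6). The T cell chemokine Cxcl9 had medians of 221 and 624 CPM but did not pass (1.49, SE 0.54, adjusted p = 0.123), and neither did Gbp2 (0.54, adjusted p = 0.324) or Cxcl10 (-0.09, adjusted p = 0.926). Of 20 type I interferon response genes 0 were called in either direction by edgeR or DESeq2, 1 had an unadjusted p below 0.05 in edgeR (beside 21.7% of all genes), and 16 had negative and 4 positive differences (median -0.41). Ifit1 was at 80, 386 and 567 CPM against 49.7, 215 and 382 CPM (-0.87, SE 0.38, adjusted p = 0.192). Isg15 had medians of 440 and 275 CPM (-0.47, SE 0.43, adjusted p = 0.556) and Irf7 of 1050 and 953 CPM (-0.01, SE 0.29, adjusted p = 0.984). The list summed to 1690 CPM in anti-PD-1 replicate 4, the lowest of the Cd3e-high tumours, and to 971 CPM in anti-PD-1 replicate 5, the lowest of all. Without the latter the median was -0.59.

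MHC class I presentation genes rose in 2 of 12 cases (median 0.62), and for this and the next lists the share of all genes called higher was 3.42%. The called pair was Psmb9, an immunoproteasome subunit (medians 63.2 and 156 CPM, 1.25, SE 0.27, adjusted p = 0.0201), and Nlrc5, the transactivator of class I genes (62.3 and 116.5 CPM, 1.07, SE 0.29, adjusted p = 0.048). The call of Nlrc5 was lost in 13 of 16 fits without 1 tumour, holding without isotype replicate 1 or 7 or anti-PD-1 replicate 2, and that of Psmb9 was lost without isotype replicate 5, which left 0 called. Without anti-PD-1 replicate 5 the list had 1 called and a median of 0.47. H2-K1 (0.6, adjusted p = 0.289), B2m (0.4, adjusted p = 0.359) and Tap1 (0.77, adjusted p = 0.101) did not pass. Checkpoint ligand genes rose in 1 of 9 cases (median 0.4; also 1 without anti-PD-1 replicate 5, and 2 without isotype replicate 7 or anti-PD-1 replicate 1 or 2): Vsir, encoding VISTA, a protein of myeloid cells, went from 76.5, 106.7 and 135.1 CPM to 130.5, 185 and 364 CPM (1, SE 0.21, adjusted p = 0.0182). Cd274, encoding PD-L1, was at 10.6, 46.4 and 59.3 CPM against 42, 87.7 and 111.3 CPM and did not pass (0.96, SE 0.32, adjusted p = 0.0923), and Pdcd1lg2 had a difference of 1.78 (adjusted p = 0.0803). Of 11 chemokine and receptor genes 5 rose and 0 fell (median 0.92; also 5 without anti-PD-1 replicate 5, and 3 without isotype replicate 5). Cxcr6, a receptor of resident and effector T cells, was at 0.0733, 0.478 and 1.25 CPM against 1.37, 3.48 and 25 CPM (3.19, SE 0.74, adjusted p = 0.0256), and its ligand Cxcl16 rose from a median of 125.2 to 272 CPM (1.04, SE 0.21, adjusted p = 0.0152). The receptors Cxcr4 (1.03, adjusted p = 0.0148) and Cxcr3 (2.38, adjusted p = 0.0235) rose as well. The calls of Cxcr6 and Cxcr3 were each lost in 3 of 16 fits without 1 tumour (without isotype replicate 5, anti-PD-1 replicate 6, and isotype replicate 8 or 6).

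**Figure D4:**
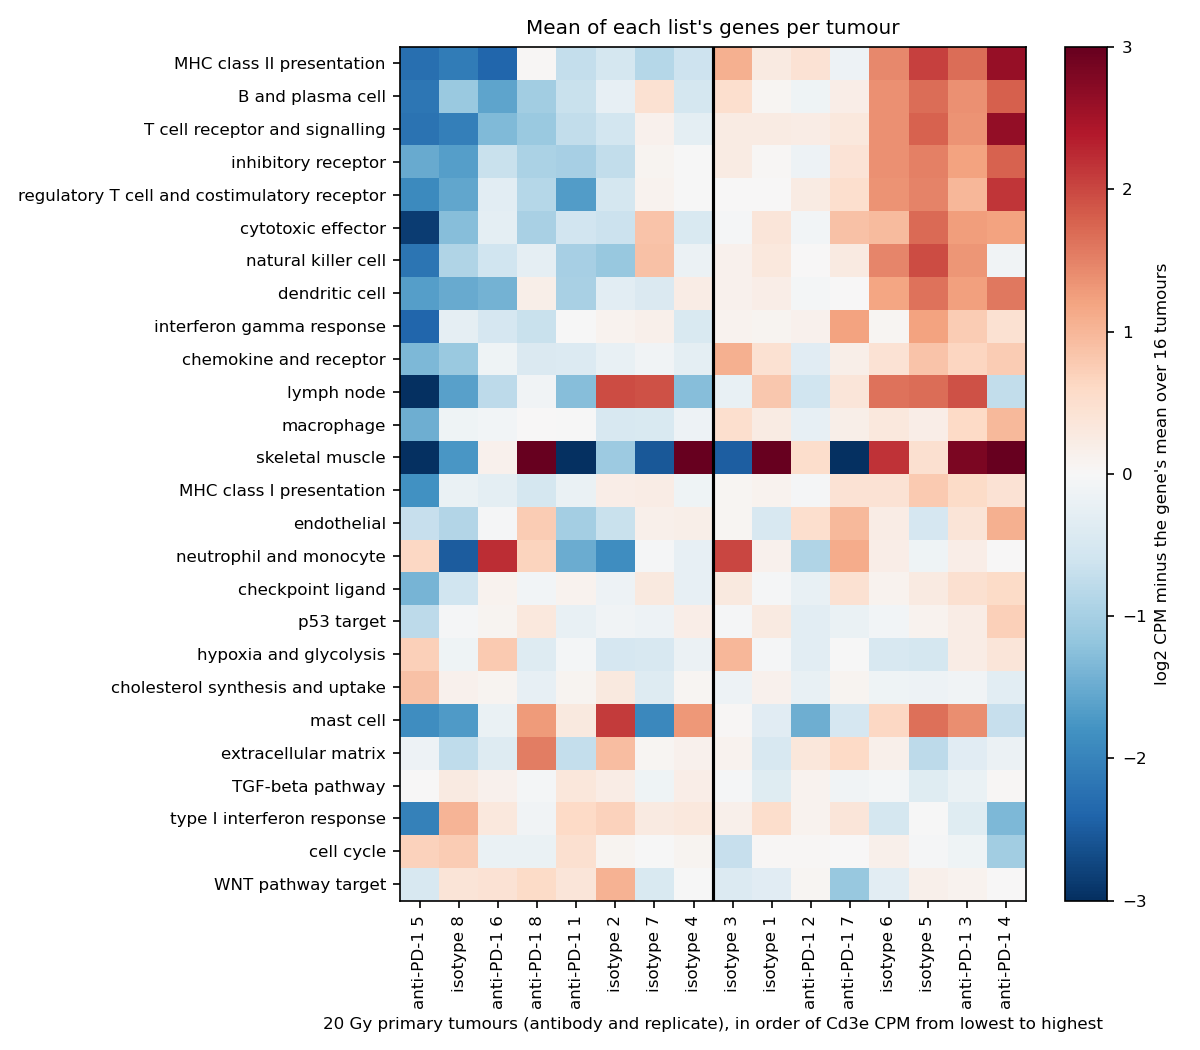
Mean over each list's tested genes of log2 CPM minus the gene's mean over the 16 irradiated primary tumours (colour, limited to between -3 and 3), with tumours in order of Cd3e CPM and a line between Cd3e-low and Cd3e-high. The T cell, inhibitory receptor, regulatory T cell, cytotoxic, B cell, dendritic cell and MHC class II lists are highest in the 4 tumours with the most Cd3e, while the natural killer, interferon gamma, chemokine and macrophage lists are not. Skeletal muscle, neutrophil and mast cell lists follow no such order, and anti-PD-1 replicate 5 is the lowest in macrophage and type I interferon genes.

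Genes that were lower in Cd3e-high tumours differed by less. The 10 with the smallest p were Chpf, Thop1, Fzd7, Twnk, Mllt1, Slc4a2, Erbb2, Vat1, Aldh7a1 and Cactin, with log2 differences of -0.48 to -0.93. Fzd7, a receptor for WNT proteins, was at 49.9, 62.5 and 118.1 CPM in Cd3e-low and 29, 37.4 and 42.3 CPM in Cd3e-high tumours, with no overlap (-0.93, SE 0.18, adjusted p = 0.0149). Cactin had no overlap either, at 55.6 to 77.1 against 36 to 55.5 CPM (-0.48, SE 0.1, adjusted p = 0.0165). Chpf, which lengthens chondroitin chains, fell from a median of 110.9 to 67 CPM (-0.76, SE 0.14, adjusted p = 0.0133). Erbb2, a receptor tyrosine kinase, fell from 32.2 to 20.9 CPM (-0.72, SE 0.15, adjusted p = 0.0163), and Twnk, the helicase of mitochondrial DNA, from 32.1 to 23.4 CPM (-0.62, SE 0.12, adjusted p = 0.0151). In a mixture, a higher share of leukocyte RNA lowers the CPM of genes that leukocytes lack, and its part in these values was not tested beyond the fit with Ptprc.

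Programmes of the tumour cells and stroma gave few calls. Ltbp1, which anchors latent TGF-beta, fell from 150, 362 and 594 CPM to 87, 155 and 247 CPM (-1.14, SE 0.28, adjusted p = 0.0312) and was the called member of 12 TGF-beta pathway genes (median -0.37, with 0.887% of all genes called lower), in which Tgfb1 had a difference of 0.3 (adjusted p = 0.135). The call of Ltbp1 was lost in 8 of 16 fits without 1 tumour, holding without isotype replicate 4, 6 or 7 or anti-PD-1 replicate 1, 2, 5, 7 or 8, and the list's lower calls ran from 0 to 2 (without anti-PD-1 replicate 2). All 20 cell cycle genes had negative differences (median -0.46), 7 with an unadjusted p below 0.05 in edgeR (beside 21.7% of all genes, the share to set against each unadjusted count that follows), and 0 passed the adjustment with edgeR. Mki67 had medians of 90.9 and 86.9 CPM (-0.16, SE 0.23, adjusted p = 0.719). The 16 p53 targets had a median of 0.14 with 0 called (2 unadjusted), Cdkn1a being at 209 and 228 CPM (0.34, SE 0.27, adjusted p = 0.491). With edgeR 0 were called and 4 had an unadjusted p below 0.05 in each of 3 further lists, 17 extracellular matrix genes (median -0.33), 8 WNT target genes tested (-0.5) and 14 endothelial genes (0.44), where Col1a1 (-0.63, adjusted p = 0.561), Axin2 (-1.11, adjusted p = 0.128) and Pecam1 (0.73, adjusted p = 0.207) were the named members. Likewise 0 were called among 14 hypoxia and glycolysis genes (0.09, 2 unadjusted), 16 cholesterol genes (-0.25, 2 unadjusted) and 18 skeletal muscle genes (0.69, 0 unadjusted), with Vegfa at -0.23 (adjusted p = 0.803) and Acta1 at 0.61 (adjusted p = 0.852). Without 1 tumour the median turned sign in 2 of these lists. It ran from -0.21 to 0.16 for hypoxia and glycolysis genes and from -0.55 to 2.79 for skeletal muscle genes.

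Whether the difference between the sets depended on antibody was tested as an interaction. In edgeR 0 of 16694 genes were called (1803 at an unadjusted p below 0.05). DESeq2 called 2, Atp6v0b (difference of log2 differences -1.34, adjusted p = 0.0288) and Sparcl1 (2.77, adjusted p = 0.0288), which are named after their values were seen. Within the 8 isotype tumours 7 genes were called between 4 and 4, and within the 8 anti-PD-1 tumours 0 were (1414 unadjusted in edgeR).

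The unirradiated tumours, which the ranking had not used, were split in the same way by their own Cd3e. Their Cd3e-high set ran from 5.34 to 19.7 CPM (median 8.43) and their Cd3e-low set from 1.73 to 4.87 CPM (median 2.53). These medians lay closer together than the 8.74 and 1.63 CPM after 20 Gy. Differences at 0 Gy and after 20 Gy thus come from splits of unlike width, whose part in their sizes was not tested. Antibody was uneven between the unirradiated sets, with 6 anti-PD-1 and 2 isotype tumours in the Cd3e-high set and the reverse in the other. In edgeR 0 of 16534 genes were called (1883 unadjusted), DESeq2 called 160, and edgeR called 223 when isotype replicate 4 of this group was left out. Of the 571 genes higher after 20 Gy, 550 were tested at 0 Gy, and 465 of these (84.5%) were also higher there, beside 47.6% of all genes. An unadjusted p below 0.05 in that direction was reached by 189 of the 550 (34.4%), beside 5% of all genes. The 571 include 15 genes of the T cell receptor and signalling list. Both splits were made by Cd3e, so T cell genes would agree between them by construction, and they were not taken out of these counts. For the 148 lower genes 93 (62.8%) had the same sign and 7 (4.73%) an unadjusted p below 0.05, beside 6.39% of all genes. Median log2 differences were 1.26 after 20 Gy and 0.35 at 0 Gy for the higher genes, and -0.6 and -0.05 for the lower ones.

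By list, MHC class II genes had a median difference of 1.08 at 0 Gy, H2-Aa having 1.13 (unadjusted p = 0.000691, adjusted p = 0.243) and Ciita 1.29 (unadjusted p = 0.00056, adjusted p = 0.243) in edgeR. Medians at 0 Gy were also below those after 20 Gy for cytotoxic genes (1.24, beside 1.58 after 20 Gy), inhibitory receptor genes (0.98, beside 1.85), regulatory T cell genes (1, beside 1.72), natural killer cell genes (0.9, beside 1.58), dendritic cell genes (0.88, beside 1.57) and interferon gamma response genes (0.73, beside 0.96). B and plasma cell genes had 0.28 (beside 2.21), macrophage genes 0.12 (beside 0.71), chemokine genes 0.16 (beside 0.92) and neutrophil and monocyte genes -0.79 (beside 0.43), while MHC class I genes had 0.61 (beside 0.62). Medians at 0 Gy were above those after 20 Gy for mast cell genes (1.39, beside -0.3), skeletal muscle genes (1.52, beside 0.69) and WNT targets (0.81, beside -0.5). Without 1 tumour the 20 Gy median ran from -0.55 to 2.79 for skeletal muscle, so this order can turn, and from -0.77 to 0.2 for mast cell genes. All 20 cell cycle genes had negative differences at 0 Gy (median -0.41, beside -0.46 after 20 Gy). Of these, 8 had an unadjusted p below 0.05 in edgeR at 0 Gy, beside 11.4% of all genes. Type I interferon genes were at 0.45 beside -0.41. Ms4a1 had a difference of 0.05 (adjusted p = 0.98) and Cd79a of -0.01 (adjusted p = 0.998) at 0 Gy in edgeR. The 10 leading higher genes of the irradiated tumours ran from -0.07 (Cd300c2) to 0.75 (Adgrg5) there. In edgeR 2 of them, Adgrg5 (unadjusted p = 0.0325) and Arhgap4 (0.33, unadjusted p = 0.0491), had an unadjusted p below 0.05. This stands beside 5% of all genes in that direction and 11.4% in either direction.

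A test of the difference between the doses over all 32 primary tumours called 1 of 17769 genes (0.00563%) in edgeR. This was Cdc42se1, an effector of the GTPase CDC42, which was at 89.8, 116.6 and 138.4 CPM in Cd3e-low and 141.7, 150 and 185 CPM in Cd3e-high irradiated tumours (0.41, SE 0.09) and went the other way at 0 Gy (-0.55), a difference of 0.94 (adjusted p = 0.00468). For the other genes, the class II, B cell and interferon genes named above included, the difference between the doses did not pass this test. An unadjusted p below 0.05 was reached in edgeR by 9 of 10 class II genes (median 1.33) and 8 of 12 B and plasma cell genes. The counts were 3 of 20 for type I interferon genes, all negative (median -0.78), and 1 of 17 for interferon gamma response genes. Of all genes 12.9% reached it. DESeq2 called 149 genes and edgeR 185 without isotype replicate 4 of the unirradiated group, while with Cd3e as a continuous term edgeR called 0 (1171 unadjusted).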

How the data were processed

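The authors deposited 1 table of raw counts per gene for 48 samples (36854 genes, symbols for 36796 from GENCODE M21). The 16 columns of the allograft tumours were not used here. The submitters' processing notes name Trimmomatic 0.36, STAR 5.5.4b, HTSeq and the build mm10. Annotation and strand setting are not given in the sources used here, so values of genes that overlap, lie antisense to each other or have close copies are uncertain. Libraries were strand-specific and from poly(A) RNA with an integrity number above 7, per the labels.

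The members and gene lists were chosen with earlier results of these data known. Genes were filtered with filterByExpr by antibody group, scaled by TMM and tested with edgeR's quasi-likelihood F test, with Benjamini-Hochberg adjustment over all tested genes except Cd3e. A log2 difference is Cd3e-high minus Cd3e-low. Its SE was taken as the absolute log2 difference over the root of F. Named genes were the 10 higher and 10 lower with the smallest p and at least 5 CPM, up to 3 called per list, a panel, and called interaction genes. The choice by smallest p left out Cd3e, the T cell receptor and signalling list, and variable, diversity and joining segments of antigen receptors. Some further genes were added after their values were seen: Cd28, H2-DMb1, H2-Ob, H2-Eb1, H2-Oa, Atp6v0b and Sparcl1, and the genes of the closing section that these rules do not give. Some genes that the rules name are not reported here. The replicates are separate tumours, and replicate numbers follow accession order. The 120 pairs of tumours differed by 85.6 to 995 in chi-square per degree of freedom, so none was a duplicate.

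In data simulated from these 16 tumours (16695 genes), the test recovered 52 of 100 genes changed 2-fold and 87 of 100 changed 4-fold, with 6 false among 145 calls. Alternatives were DESeq2, other scaling, no filter, no antibody term, continuous Cd3e, 5 against 5, muscle, Xist or Ptprc covariates, each antibody alone, and leaving out each tumour with the sets kept. Leaving out 6 muscle-rich tumours was added after seeing the data. Models ran in R 4.3.3 with DESeq2 1.42.0, limma 3.58.1 and edgeR 4.0.16, and figures in Python 3.11.15 with matplotlib 3.10.9, numpy 2.4.6 and pandas 2.3.3. Totals were 31.8 to 51.4 M counts, and how far tumours differ beyond counting error at each level of expression was not tested. Values below 1 CPM rest on the fewest reads and are the least reliable.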

Additional observations from a re-analysis of the deposited data

Results flagged for a closer look

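A tumour far from the other 7 of its set was found in 18 of 198 sets of values examined (9.09%), where chance gives about 1 in 20. The library labelled Primary_20Gy_PD1 replicate 5, in the Cd3e-low set, accounted for 11 of them, each time as the lowest. Its values in log2 CPM were 4.26 for Psmb9, 2.93 for Gbp4, 2.22 for Gzmb, 4.86 for Adgre1, 6.88 for C1qa, 4.76 for Mrc1, 5.65 for Tap1, 5.96 for Gbp2, 7.4 for Irf7, 6.32 for Ifit1 and 6.21 for Cdkn1a. Isotype replicate 7 was high for its Cd3e-low set in Card9 (3.68). Anti-PD-1 replicate 8, also Cd3e-low, was high in Twnk (5.71) and low in Mllt1 (5.96). Isotype replicate 2, of the same set, was high in Trp53 (5.9). In the Cd3e-high set isotype replicate 1 was low in Nlrc5 (5.98), anti-PD-1 replicate 4 was high in Cxcr6 (4.65) and anti-PD-1 replicate 2 was high in Cdc42se1 (7.53).

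Cdc42se1 also differed between the doses, by 0.937 on the log2 scale.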

How the results depend on the processing

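The 719 calls became 1695 with DESeq2 (718 of the 719 among them), 463 with no filter, 2548 with Cd3e as a continuous term, 221 with a skeletal muscle covariate, 0 with a Ptprc covariate, 7 in isotype and 0 in anti-PD-1 tumours alone, and 0 without 6 muscle-rich tumours (2182 unadjusted, smallest adjusted p 0.0864). The share of calls that were higher was 61.8% with DESeq2. Without 1 tumour they ranged from 251 to 1174. With DESeq2 the antibody interaction gave 2, the 0 Gy split 160 and the dose difference 149 calls. Continuous Cd3e gave 107 at 0 Gy and 0 for the dose difference. Without 1 tumour the 0 Gy split gave 0 to 223 and the dose difference 1 to 185 calls, moving without Primary_0Gy_Iso replicate 4 (185) or Primary_0Gy_PD1 replicate 4 (2), and without Primary_20Gy_Iso replicate 7 (4) or Primary_20Gy_PD1 replicate 2 (12), 7 (3) or 8 (2). The sign turned with a Ptprc covariate for Ctsw (-0.25), Pdcd1 (-0.467), Icos (-0.235), Foxp3 (-0.595), Itgae (-0.139), Csf1r (-0.181), Vsir (-0.079), Nkg7 (-0.381), Cd74 (-0.068) and Cxcr3 (-0.186). With 0.5 CPM added, the log2 ratio difference was -1.14 for Gzmb and -0.81 for Ifng to Cd8a. The test planned for these ratios is not reported, since Cd8a moved with the ranking gene. Without 1 tumour the log2 ratio differences ran from -1.64 to -1.01 for Gzmb, -0.29 to 0.03 for Ifng, -0.54 to -0.25 for Pdcd1 and -2.77 to -2.18 for Tcf7 to Cd8a, from 1.09 to 1.35 for Cd8a and from 0.56 to 1.02 for Foxp3 to Cd4, and the difference in library totals from -5.84 to -3.17 M counts. The causes were not tested. No paired analysis was possible because the labels give no replicate numbers that tumours of different groups share.

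Small sets, the uneven antibody split at 0 Gy and the choice of sets by a measured gene limit these values. Genes below 1 CPM rest on few reads.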

Other observations

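Besides the lists, 16 gene families were looked at after values were seen and without a test of the family, beside 3.42% of all genes called higher. Of 9 genes tested whose symbols begin with Gimap, most of them encoding GTPases of lymphocytes, 7 were called higher, the opposite-strand transcript Gimap1os among them (median log2 difference 1.32). For the 11 Cd300 receptor genes tested 6 were called higher (median 1.39), for the 5 Naip genes, sensors of bacterial proteins, 4 (median 1.02), for 5 Slamf genes 3 (median 1.43) and for 3 Sirpb genes all 3 (median 1.66). In the other 11 families the genes called higher were 2 of 4 Nlrp, 4 of 12 Ms4a, 2 of 6 Siglec, 3 of 12 Tlr, 1 of 4 Fcgr, 4 of 22 Clec, 2 of 12 Klra, 1 of 9 Gzm (median -0.52), 1 of 11 Dock, 0 of 9 Fzd and 0 of 12 Wnt genes. At 0 Gy the medians of the first 5 were 0.43, 0.08, 0.12, 0.98 and 0.13 in the same order. Ubd, an interferon- and TNF-induced ubiquitin-like gene, stood at 6.34 ± 10.2 CPM in Cd3e-low and 55.8 ± 39.9 CPM in Cd3e-high tumours (SD, n = 8 each; log2 difference 3.53, edgeR adjusted p = 0.0194).

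On the lower side, Wnt7b, a WNT ligand, was at 37.1 ± 35.3 CPM in Cd3e-low and 6.57 ± 4.06 CPM in Cd3e-high tumours (SD, n = 8 each; -2.54, edgeR adjusted p = 0.0203), and the adhesion gene Nrcam at 78.6 ± 98 and 14 ± 9.83 CPM (-2.51, edgeR adjusted p = 0.0496). Of 12 Wnt genes tested Wnt7b was the called one, beside 0.887% of all genes called lower. At 0 Gy the differences were 0.38 for Wnt7b and 1.37 for Nrcam.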
